A study of Mus musculus with 16 samples.

Results

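A set of 8 genes, from Notch receptors to Notch targets and the adhesion molecule ESAM, was followed across splenic dendritic cells with and without Etv6. It holds the receptors Notch1, Notch2 and Notch4, the nuclear factor Rbpj, the targets Dtx1, Hes1 and Nrarp, and the surface molecule Esam. They were taken by name from the deposited table, 8 of 24116 genes, and all 8 passed the filter on low counts that left 13790 genes for testing. The cells were dendritic cells (DCs) sorted from mouse spleen into 4 subsets, labelled Dec205 (the cross-presenting classical DCs, or cDC1), pDC (plasmacytoid DCs), and Esamlo and Esamhi (classical DCs of the cDC2 lineage with little or much ESAM on the surface). Each subset was taken from CKO cells, which lack the ETS-family transcription factor Etv6 according to the series' design text, and from WT cells, giving 8 groups of 2 libraries each. The strain, the age, the Cre line and whether cells of several mice were pooled are not named in the labels. The labels do not say whether replicate libraries came from separate mice, so each p-value weighs a difference against library-to-library spread that may be technical only.

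Notch receptors are membrane proteins that are cut when a neighbouring cell presents a Delta or Jagged ligand. The freed intracellular part enters the nucleus, binds the DNA-bound factor RBPJ and turns RBPJ from a repressor into an activator of genes such as Hes1, Nrarp and Dtx1. In the mouse spleen, signalling through NOTCH2 and RBPJ is known to be required for the ESAM-high cDC2, and ESAM, an adhesion molecule otherwise known from endothelial cells and platelets, is the surface marker of those cells.

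Promoter sequences are shown for 3 of the genes: for Notch4, whose level changed most in Dec205 CKO cells, for Rbpj, the factor that binds the core TGGGAA, and for Dtx1, the target that differed most between subsets. ETS factors such as Etv6 bind the core GGAA. Each is the 250 bases before an annotated start, from RefSeq on GRCm38.p6, the assembly that the authors' build mm10 corresponds to. It is written 5′ to 3′ on the gene's strand. Capitals mark GGAA or its reverse complement TTCC. The Notch4 window lies at chr17:34564045-34564294 on the plus strand. The Rbpj window lies at chr5:53590096-53590345 on the plus strand, and that of Dtx1 at chr5:120711670-120711919 on the minus strand.
Notch4: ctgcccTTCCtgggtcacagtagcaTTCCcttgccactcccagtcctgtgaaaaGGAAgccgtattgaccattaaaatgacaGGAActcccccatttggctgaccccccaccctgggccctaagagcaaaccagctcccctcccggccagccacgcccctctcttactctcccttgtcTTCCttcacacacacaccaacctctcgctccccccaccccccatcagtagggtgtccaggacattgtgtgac
Rbpj: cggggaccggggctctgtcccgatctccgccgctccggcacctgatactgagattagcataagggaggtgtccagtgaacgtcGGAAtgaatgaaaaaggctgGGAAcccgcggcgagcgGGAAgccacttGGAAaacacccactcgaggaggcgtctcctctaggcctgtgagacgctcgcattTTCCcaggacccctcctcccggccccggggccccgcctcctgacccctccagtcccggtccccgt
Dtx1: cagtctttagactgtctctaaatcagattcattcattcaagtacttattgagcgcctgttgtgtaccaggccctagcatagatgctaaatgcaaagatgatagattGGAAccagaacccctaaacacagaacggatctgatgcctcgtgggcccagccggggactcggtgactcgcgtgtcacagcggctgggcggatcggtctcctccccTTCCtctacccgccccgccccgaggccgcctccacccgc
The Notch4 window holds 5 GGAA cores on either strand, the Rbpj window 5 and the Dtx1 window 2. This compares with a median of 3 in all 32851 promoter windows of the same length, of which 93.4% held at least 1. TGGGAA, searched on both strands, was found 2 times in the Rbpj window. The matches run from 149 to 144 bases before the start on the plus strand and from 65 to 60 on the minus strand. Each holds a GGAA or TTCC by construction, since TGGGAA ends in GGAA. It was absent from the Notch4 and Dtx1 windows and present in 21.6% of all windows. These letters are a description of the sequence and are not binding sites. Rbpj also has another annotated start, whose window at chr5:53590236-53590485 on the plus strand is not shown. That window holds 2 cores of the ETS kind, below the median of 3, and 1 of the RBPJ kind. The window shown for Rbpj holds 5 and 2, so both counts depend on the start chosen.

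Libraries held 14434287 to 20709265 counts, so 3 counts, the floor used for a gene at 0, corresponded to 0.143 to 0.228 CPM, the count scaled to the TMM-adjusted size of its library. Etv6 itself was lower in Dec205, at 205 and 219 CPM in CKO against 337 and 375 CPM in WT (log2 fold change -0.75, SE 0.10, edgeR quasi-likelihood adjusted p = 0.000996). It did not pass the test in the other 3 subsets, so the whole-gene count checks the genotype labels only weakly. Xist was at 114 to 355 CPM in the CKO libraries and at most 1.44 CPM in the WT libraries. Ddx3y was at most 1.95 CPM in CKO and 105 to 222 CPM in WT. Sex and genotype therefore cannot be told apart in any comparison of CKO with WT. Summed over 12 cDC1 markers, the Dec205 libraries held 16894 to 20177 CPM and all others at most 7490 CPM. Over 11 pDC markers, the pDC libraries held 14723 to 16945 CPM and all others at most 551 CPM. The 7 ESAM-low markers summed to 3126 to 3962 CPM in Esamlo and at most 992 CPM in Esamhi. The 10 cDC2 markers did not set the cDC2 subsets apart from pDC, at 2668 to 3376 CPM in Esamlo and Esamhi and 2743 to 2970 CPM in pDC. Summed B cell markers (12 of 12 in the table, with 1 at 0 in Dec205 WT replicate 1 and none at 0 in any other library) reached 1042 and 545 CPM in Dec205 CKO against 260 and 279 CPM in Dec205 WT. In Esamlo they reached 1375 and 577 CPM in CKO against 395 and 542 CPM in WT. CKO replicate 1 was the higher of the pair in both subsets. In sorted cells measured in bulk, fewer cells that express a gene and less RNA of it per cell cannot be told apart.

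**Figure D1:**
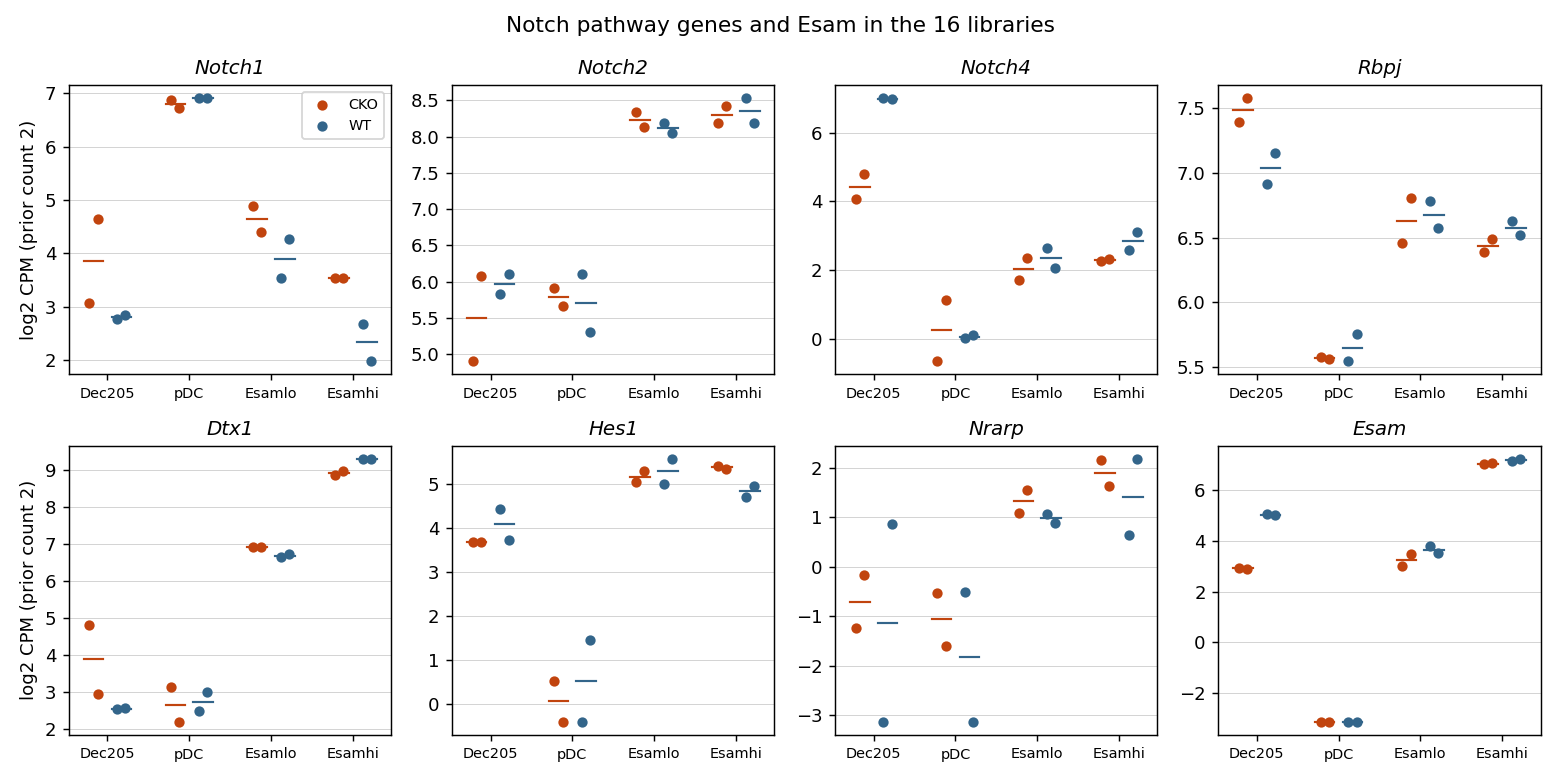
Level of each of the 8 genes as log2 CPM with a prior count of 2, by subset with CKO left of WT. Each point is 1 library and each bar the mean of the 2, and the vertical scale differs between panels. Notch4 stood highest in Dec205 WT (128 and 125 CPM) with Dec205 CKO below it (16.7 and 27.5 CPM), Dtx1 highest in Esamhi, and Esam was at 0 in all 4 pDC libraries.

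The receptors divided the subsets among themselves. Notch1, the receptor known for directing T cell fate, was highest in pDC. Its level there was 117 and 106 CPM in pDC CKO and 120 and 120 CPM in pDC WT. In Esamlo it was 29.3 and 20.9 CPM in CKO and 11.5 and 19.1 CPM in WT, and in Dec205 8.31 and 24.8 CPM in CKO and 6.68 and 7.03 CPM in WT. Esamhi held 11.5 and 11.5 CPM in CKO and 6.29 and 3.84 CPM in WT. No other subset reached the pDC libraries in either genotype. In WT the order of levels was pDC, Esamlo, Dec205 and Esamhi. The step between pDC and Esamlo was past the test, with a log2 fold change of Esamlo against pDC of -2.97 (SE 0.41, edgeR adjusted p = 6.41e-05). The neighbours Dec205 and Esamlo differed by -1.15 on the log2 scale (95% interval -2.13 to -0.18, edgeR adjusted p = 0.0517). Esamhi and Dec205 differed by -0.44 (95% interval -1.46 to 0.58, edgeR adjusted p = 0.472). The means of the CKO groups gave the same order, although the Dec205 CKO libraries were spread across it, 1 below both Esamhi CKO libraries and 1 above an Esamlo CKO library. Exons of 2 genes on the opposite strand, 0610009E02Rik and Gm13568, cover 7.5% and 2.91% of the exon bases of Notch1 (chromosome 2, 26457902 to 26503822), and the library kit does not mark strand.

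Notch2, the receptor through which ESAM-high cDC2 are known to depend on Notch, had its highest levels in both cDC2 subsets. It was at 290 and 342 CPM in Esamhi CKO and 369 and 291 CPM in Esamhi WT. In Esamlo it was at 324 and 279 CPM in CKO and 292 and 265 CPM in WT. Dec205 had 29.9 and 67.4 CPM in CKO and 56.5 and 68.6 CPM in WT, and pDC had 60.04 and 50.5 CPM in CKO and 68.5 and 39.4 CPM in WT. Every Esamhi and Esamlo library stood above every Dec205 and pDC library. The 2 cDC2 subsets themselves could not be separated by Notch2 in WT. Esamhi against Esamlo gave a log2 fold change of 0.24 (95% interval -0.46 to 0.95, edgeR adjusted p = 0.764). Nor could Dec205 and pDC, at 0.21 (95% interval -0.52 to 0.94, edgeR adjusted p = 0.609). Between these pairs the step was past the test, with Esamhi against Dec205 at 2.40 (SE 0.33, edgeR adjusted p = 8.59e-05). Dec205 against Esamlo stood at -2.15 (SE 0.32, edgeR adjusted p = 0.000228).

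Notch4, a receptor best known from endothelial cells, was a transcript of Dec205 cells. Its level there was 16.7 and 27.5 CPM in CKO against 128 and 125 CPM in WT. Esamhi held 4.68 and 4.90 CPM in CKO and 5.91 and 8.51 CPM in WT, and Esamlo 3.16 and 5.03 CPM in CKO and 6.19 and 4.05 CPM in WT. The pDC libraries held 0.528 and 2.09 CPM in CKO and 0.908 and 0.965 CPM in WT. Dec205 thus stood highest in both genotypes, with no overlap with another subset. In WT, Notch4 was 17.6-fold lower in Esamhi than in Dec205 (log2 fold change -4.13, SE 0.44, edgeR adjusted p = 1.01e-05). It was 134-fold higher in Dec205 than in pDC (log2 fold change 7.07, SE 0.53, edgeR adjusted p = 2.02e-07). Esamhi and Esamlo were neighbours that did not pass the test, at 0.49 (95% interval -0.47 to 1.45, edgeR adjusted p = 0.623).

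To compare the receptors with each other, CPM was divided by the length of each gene's exons: 14.2 kb for Notch1, 10.8 kb for Notch2 and 8.06 kb for Notch4. Of the length-scaled sum of these 3 receptors, Notch2 made up 92.5% to 96.7% in the 8 Esamlo and Esamhi libraries, and Notch1 made up 56.6% to 69.1% in the 4 pDC libraries. Notch3, a receptor that is not among the 8 genes, is left out of that sum. With it included, Notch1 made up 39.3% to 48.7% in pDC and Notch3 28.0% to 34.7%, while Notch3 was at most 0.767% elsewhere. In Dec205, Notch4 made up 38.1% and 29.9% in CKO against 73.6% and 69.4% in WT, while Notch2 made up 51.1% and 54.8% in CKO against 24.3% and 28.4% in WT. The leading receptor by this scale was therefore Notch2 in both Dec205 CKO libraries and Notch4 in both Dec205 WT libraries. The sum itself was 5.42 and 11.4 CPM per kb in Dec205 CKO against 21.6 and 22.4 CPM per kb in Dec205 WT, so a larger share of Notch2 there went with a smaller sum and not with a call for Notch2.

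**Figure D2:**
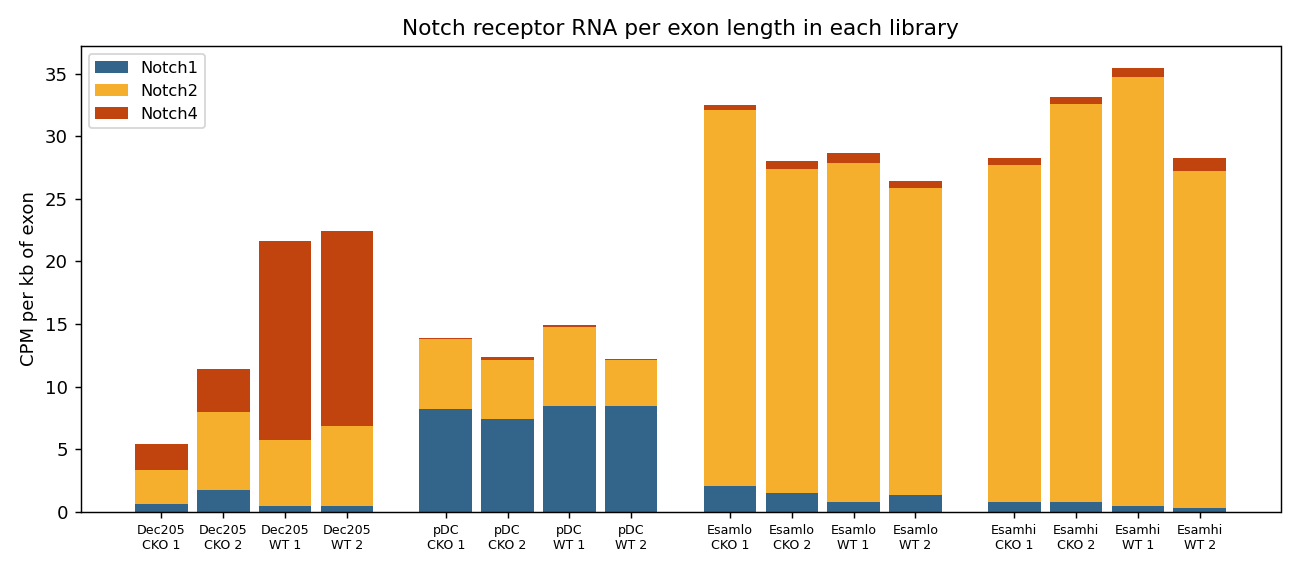
Level of Notch1, Notch2 and Notch4 in every library as CPM per kb of exon, by subset with CKO left of WT. Notch2 was the main part in Esamlo and Esamhi (92.5% to 96.7%), Notch1 in pDC (56.6% to 69.1% of these 3 receptors), and Notch4 in Dec205 WT (73.6% and 69.4%) but not in Dec205 CKO (38.1% and 29.9%).

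Rbpj, the DNA-bound factor that all Notch receptors act through, was present in every subset and varied least of the 8 genes. It was at 168 and 191 CPM in Dec205 CKO and 121 and 142 CPM in Dec205 WT. Below that it was at 88.0 and 112 CPM in Esamlo CKO and 110 and 95.1 CPM in Esamlo WT, and at 83.6 and 89.8 CPM in Esamhi CKO and 99.0 and 91.5 CPM in Esamhi WT. The pDC libraries held 47.7 and 47.0 CPM in CKO and 46.6 and 53.8 CPM in WT, below all others. In WT the order was Dec205, Esamlo, Esamhi and pDC. Esamhi was above pDC by 0.92 on the log2 scale (SE 0.14, edgeR adjusted p = 0.000137). The neighbours above it did not pass the test. Dec205 against Esamlo stood at 0.36 (95% interval 0.04 to 0.68, edgeR adjusted p = 0.0622), and Esamhi against Esamlo at -0.11 (95% interval -0.43 to 0.22, edgeR adjusted p = 0.781).

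Among the targets, Dtx1, an E3 ubiquitin ligase of the Deltex family that modulates Notch, separated the cDC2 subsets most. It was at 464 and 498 CPM in Esamhi CKO and 629 and 622 CPM in Esamhi WT. In Esamlo it was at 120 and 121 CPM in CKO and 99.3 and 105 CPM in WT. In pDC it was at 8.56 and 4.45 CPM in CKO and 5.45 and 7.77 CPM in WT, and in Dec205 at 28.0 and 7.59 CPM in CKO and 5.69 and 5.75 CPM in WT. Each Esamhi library was above each Esamlo library, and each Esamlo library above each Dec205 and pDC library. In WT, Dtx1 was 6.13-fold higher in Esamhi than in Esamlo (log2 fold change 2.62, SE 0.39, edgeR adjusted p = 0.00162). It was 109-fold higher in Esamhi than in Dec205 (log2 fold change 6.77, SE 0.50, edgeR adjusted p = 4.26e-07). That step between the cDC2 subsets came with no called difference in Notch2 or Rbpj.

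Hes1, a repressor that is the classical target of Notch, had its highest means in the cDC2 subsets, with no called difference between them. It was at 42.7 and 40.5 CPM in Esamhi CKO and 26.0 and 31.1 CPM in Esamhi WT, and at 32.8 and 39.0 CPM in Esamlo CKO and 32.2 and 47.6 CPM in Esamlo WT. Dec205 held 12.8 and 12.8 CPM in CKO and 21.6 and 13.1 CPM in WT. In pDC it was near the floor, with 1.32 and 0.643 CPM in CKO and 0.641 and 2.64 CPM in WT. Esamhi and Esamlo overlapped across genotypes, and both stood above Dec205 and pDC. In WT, Esamhi against Esamlo gave a log2 fold change of -0.48 (95% interval -1.39 to 0.44, edgeR adjusted p = 0.608), a sign opposite to that of Dtx1. Esamhi against Dec205 was not called either, at 0.72 (95% interval -0.21 to 1.65, edgeR adjusted p = 0.185). Dec205 against Esamlo gave -1.20 (SE 0.41, edgeR adjusted p = 0.037), a call that was lost in 8 of 16 fits that left out 1 library (Dec205 WT replicate 2, Esamlo WT replicate 2, either Esamlo CKO library or any Esamhi library). A fit that leaves out a library keeps 1 in that group, which is then assumed to vary like the other groups. Dec205 against pDC gave 3.39 (SE 0.48, edgeR adjusted p = 7.04e-05).

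Nrarp, a feedback inhibitor of Notch signalling, was close to the limit of detection. Its level was 4.34 and 2.99 CPM in Esamhi CKO and 1.44 and 4.41 CPM in Esamhi WT. In Esamlo it was 2.01 and 2.82 CPM in CKO and 1.99 and 1.73 CPM in WT. It was at most 1.69 CPM in any Dec205 or pDC library, with 0 counts in 1 Dec205 WT and 1 pDC WT library. Esamhi and Esamlo held more than pDC in each genotype, but the edgeR test passed for no pair of subsets in WT, and its standard errors were 1.32 to 1.49 on the log2 scale. DESeq2 called Nrarp for Esamhi against pDC (log2 fold change 3.32, DESeq2 adjusted p = 0.0397). A gene annotated antisense to it, Gm38287, covers 79.4% of its exon bases (chromosome 2, 25180758 to 25183339), so reads of the pair cannot be told apart and its values are uncertain.

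Esam, on chromosome 9 from 37528089 to 37538319, had 131 and 134 CPM in Esamhi CKO and 144 and 151 CPM in Esamhi WT. In Esamlo it had 7.99 and 10.96 CPM in CKO and 13.7 and 11.5 CPM in WT. In Dec205 it had 7.49 and 7.39 CPM in CKO against 33.2 and 32.5 CPM in WT, and in pDC it had no count in any of the 4 libraries. Its difference between Esamhi and Esamlo checks the sort and is no finding. Dec205 cells, which the labels do not describe as chosen by ESAM, held more Esam than Esamlo in WT, with a log2 fold change of 1.38 (SE 0.17, edgeR adjusted p = 9.6e-05). In CKO the order of these 2 subsets was the other way round, with both Dec205 libraries below both Esamlo libraries. Against a floor of 3 counts over the pDC group, Esam was at least 93.2-fold higher in Dec205 CKO and at least 420-fold higher in Dec205 WT than in pDC of the same genotype.

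The number of the 8 genes called between subsets of WT depended on the pair. Between Esamhi and Esamlo, Dtx1 and the sort marker Esam were higher in Esamhi and Notch1 was lower (log2 fold change -1.59, SE 0.42, edgeR adjusted p = 0.0471), 3 of 8 against 5.81% of all tested genes, or 2 of 7 without the sort marker. The call of Notch1 was kept in 4 of 16 fits that left out 1 library, those without a Dec205 library, with adjusted p up to 0.341 otherwise, and was lost without the filter on low counts (0.0967) and with a replicate block (0.0576). Between Esamhi and Dec205, 5 of 8 were called against 37.4% of all tested genes, or 4 of 7 without Esam. Notch2, Dtx1 and Esam were higher in Esamhi, while Notch4 and Rbpj were lower. The call of Rbpj (log2 fold change -0.47, SE 0.14, edgeR adjusted p = 0.0185) was kept in 13 of 16 such fits and lost without Dec205 WT replicate 2 or either Esamhi WT library. Between Dec205 and Esamlo, 5 of 8 were called against a background of 34.2%, or 4 of 7 without Esam. Against pDC, 7 of 8 were called in Esamhi (background 47.1%), 7 of 8 in Esamlo (45.7%) and 5 of 8 in Dec205 (47.6%). Without Esam these were 6 of 7, 6 of 7 and 4 of 7. In each of the 3, Notch1 alone of the called genes was lower than in pDC. The median log2 difference of the 8 genes was 0.37 for Esamhi against Esamlo, or 0.24 without Esam, beside 0.00 for all tested genes. For Esamhi against Dec205 it was 1.24, or 0.72 without Esam, beside 0.04.

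**Figure D3:**
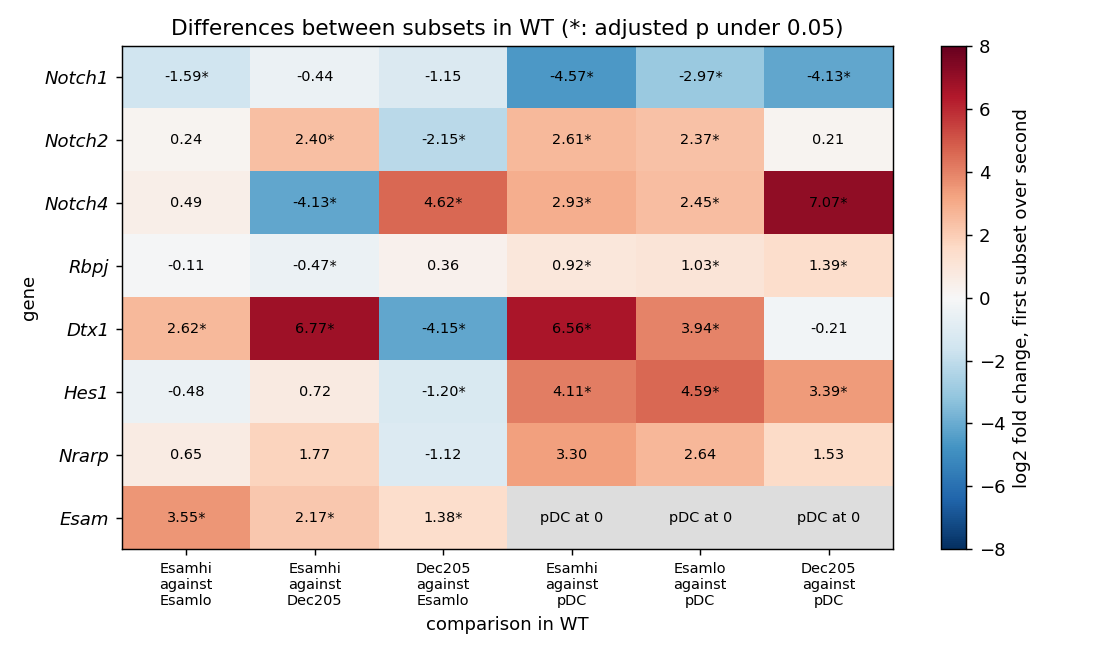
Differences between subsets in WT for the 8 genes (rows) in 6 comparisons (columns), as log2 fold changes of the subset named first over the other, coloured red above 0 and blue below. A star marks an edgeR adjusted p under 0.05. Dtx1 lay at 2.62 for Esamhi against Esamlo and 6.77 for Esamhi against Dec205, while Notch4 lay at -4.13 for Esamhi against Dec205. Esam against pDC is grey, since all pDC libraries are at 0.

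The comparison of CKO with WT asked which of these genes moved with the loss of Etv6. In Dec205, Notch4 and Esam both fell. Notch4 fell 5.75-fold (log2 fold change -2.52, SE 0.40, edgeR adjusted p = 0.0026). Esam fell 4.41-fold (log2 fold change -2.14, SE 0.17, edgeR adjusted p = 4.43e-05). For each, both CKO libraries were below both WT libraries. They were 2 of 8 genes called, both lower, against 6.78% of all tested genes called in that comparison and 3.34% called lower. Both calls held in all 16 fits that left out 1 library, with adjusted p up to 0.0221 for Notch4 and 0.000785 for Esam. The median log2 fold change of the 8 genes was -0.41, beside 0.00 for all tested genes. Without a call, the libraries of the genotypes also did not overlap for Notch1, Rbpj, Dtx1 and Hes1, which made 6 of 8 genes that did not overlap, against 41.2% of all tested genes.

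Because Notch4 and Esam are also genes of endothelial cells and Esam of platelets, the markers of those cells are given beside them. Of 12 endothelial markers, Tie1, Tek, Emcn, Cldn5, Robo4 and Sox17 were at 0 in all 4 Dec205 libraries, and Cdh5, the endothelial cadherin, was at 0.769 and 0.648 CPM in Dec205 CKO and 0 and 0.135 CPM in Dec205 WT. The 12 summed to 35.9 and 29.9 CPM in Dec205 CKO and 71.2 and 69.8 CPM in Dec205 WT, of which Pecam1, an adhesion molecule that leukocytes share, made up most. Pecam1 was at 20.7 and 18.5 CPM in CKO against 69.0 and 68.8 CPM in WT (log2 fold change -1.81, SE 0.16, edgeR adjusted p = 3.09e-05). Kdr, a receptor for vascular growth factor, went the other way, at 13.8 and 2.85 CPM in CKO against 0.607 and 0 CPM in WT (log2 fold change 4.83, SE 0.94, edgeR adjusted p = 0.00901). These were the 2 of 5 tested endothelial markers that were called. The 8 platelet markers summed to 19.4 and 16.99 CPM in Dec205 CKO against 4.33 and 5.61 CPM in Dec205 WT. Itga2b, an integrin subunit of platelets, made up most of the sum in CKO, at 17.5 and 14.9 CPM in CKO against 1.29 and 2.502 CPM in WT, while Gp9, a platelet glycoprotein, was at 1.64 and 0.324 CPM in CKO and 2.13 and 3.11 CPM in WT. Of the 3 tested platelet markers, Itga2b came closest to a call (log2 fold change 3.09, SE 0.96, edgeR adjusted p = 0.078). The cDC1 marker Cd8a fell too, to 69.2 and 70.7 CPM in Dec205 CKO against 781 and 699 CPM in Dec205 WT, while the summed cDC1 markers overlapped. Cd8a was the only 1 of the 12 cDC1 markers called, against 6.78% of all tested genes. The median log2 fold change of the 12 was 0.13. The 11 pDC markers summed to 551 and 465 CPM in Dec205 CKO against 250 and 270 CPM in Dec205 WT, with 6 called higher and 1 lower. Runx2, a transcription factor of pDC, was among those higher, at 111 and 159 CPM in CKO against 11.005 and 19.5 CPM in WT. The part of these marker changes in the values of the 8 genes was not tested.

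Notch1, Dtx1 and Rbpj had higher means in Dec205 CKO without passing the edgeR test. DESeq2 called all 3, with adjusted p of 0.0249, 0.0107 and 0.0294, so that it called 5 of 8 genes, against 12.6% of all genes it tested. For Notch1 and Dtx1 the 2 CKO libraries lay far apart, and each value without a CKO replicate rests on the 1 that remains. Notch1 had a log2 fold change of 1.26 (95% interval 0.29 to 2.23, edgeR adjusted p = 0.0988), with 24.8 CPM in CKO replicate 2 and 8.31 CPM in CKO replicate 1. Without CKO replicate 1 it was 1.86 (edgeR adjusted p = 0.00506), and without CKO replicate 2 it was 0.28. Dtx1 had 1.66 (95% interval 0.59 to 2.72, edgeR adjusted p = 0.0516), with the higher value in the other library, 28.0 CPM in CKO replicate 1 against 7.59 CPM in CKO replicate 2. Without CKO replicate 2 it was 2.30 (edgeR adjusted p = 0.000344), and without CKO replicate 1 it was 0.41. CKO replicate 1 was also the library with more B cell RNA. Cd79a, a subunit of the B cell receptor, was at 194 CPM against 69.8 CPM in CKO replicate 2 and 33.2 and 37.1 CPM in the WT libraries. The part of this in Dtx1 was not tested. Rbpj had 0.45 (95% interval 0.13 to 0.77, edgeR adjusted p = 0.0755). Notch2 (-0.37, 95% interval -1.10 to 0.37), Hes1 (-0.44, 95% interval -1.39 to 0.50) and Nrarp (-0.66, 95% interval -3.93 to 2.61) did not pass in Dec205 either. Notch2 was called, at -1.06 (edgeR adjusted p = 0.049), without CKO replicate 2 and stood at 0.11 without CKO replicate 1. A further fit left out the 2 libraries highest in B cell markers, Dec205 CKO replicate 1 and Esamlo CKO replicate 1. This setting was chosen after the data were seen and leaves 1 library in each of these groups. The log2 fold changes in Dec205 were then -2.20 for Notch4, -2.15 for Esam, 1.85 for Notch1 and 0.41 for Dtx1.

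In the other 3 subsets none of the genes was called by edgeR's quasi-likelihood test or by DESeq2. That is 0 of 7 in pDC, where Esam had no counts (edgeR background 1.85%), 0 of 8 in Esamlo (background 0.551%) and 0 of 8 in Esamhi (background 0.877%). Before adjustment, a p under 0.05 was reached by 0 genes in pDC, by Esam in Esamlo and by Notch1 in Esamhi. The libraries of the genotypes did not overlap for 1 of 7 genes in pDC (background 37.3%), 4 of 8 in Esamlo (44.2%) and 6 of 8 in Esamhi (44.2%). In Esamhi, Dtx1 had a log2 fold change of -0.38 (95% interval -1.23 to 0.47, edgeR adjusted p = 1). Notch1 had 1.19 (95% interval 0.20 to 2.17, edgeR adjusted p = 0.41) and Esam -0.15 (95% interval -0.51 to 0.21, edgeR adjusted p = 1). In a fit of the 4 Esamhi libraries alone, Notch1, Dtx1 and Hes1 passed, with edgeR adjusted p of 0.0235, 0.0318 and 0.0494. The number called among all tested genes rose in that fit too, to 578 from 121 in the fit of all 16 libraries. The 7 ESAM-low markers summed to 992 and 865 CPM in Esamhi CKO against 385 and 502 CPM in Esamhi WT. Lyz2 alone made up most of this sum, with a mean of 735 CPM in CKO and 275 CPM in WT, and 0 of the 7 were called. The ESAM-high markers other than Dtx1 and Esam, 3 genes, summed to 660 and 707 CPM in CKO against 984 and 941 CPM in WT, with 1 of the 3 called, lower in CKO. The part of these marker values in those of the 8 genes was not tested. In Esamlo, Esam had -0.42 (95% interval -0.81 to -0.02, edgeR adjusted p = 0.556). Since Esamlo and Esamhi were sorted by ESAM, their Esam values depend on the gates as well.

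Averaged over the 4 subsets, Notch1 was called, 1 of 7 genes with counts in every subset, against 5.82% of all tested genes, higher in CKO with a log2 fold change of 0.76 (SE 0.20, edgeR adjusted p = 0.0445). The CKO libraries were above the WT libraries in Dec205, Esamlo and Esamhi and below them in pDC, where the change was -0.10 (95% interval -0.97 to 0.76). The call was kept in 4 of 16 fits that left out 1 library (either Dec205 CKO library, Esamlo WT replicate 2 or Esamhi WT replicate 1), with adjusted p from 0.00164 to 0.123, and was lost without the filter on low counts (0.0931) and with a replicate block (0.0522).

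Whether the effect of CKO differed between subsets was tested directly. Of the 8 genes, 1 was called in the joint test over the subsets, against 2.44% of all tested genes: Esam (edgeR adjusted p = 0.00472). That test includes the contrast of Dec205 with pDC, although pDC, with no Esam counts, holds no information on the effect of CKO on Esam. The log2 fold change of Esam in Dec205 minus that in Esamlo was -1.72 (SE 0.24, edgeR adjusted p = 0.00634), 1 of 8 genes called against a background of 1.53%. Minus that in Esamhi it was -1.99 (SE 0.23, edgeR adjusted p = 0.0016), again 1 of 8, against a background of 1.91%. Both held in all 16 fits that left out 1 library. Esamlo and Esamhi were sorted by ESAM in both genotypes, while the labels do not describe Dec205 as chosen by it. A difference made by these gates and a difference in the effect of CKO therefore cannot be told apart for Esam. For Notch4, the log2 fold change in Dec205 minus that in pDC was -3.00 (SE 0.68, edgeR adjusted p = 0.0387), 1 of 7 called against a background of 2.41%. This held in 5 of 16 such fits (those without pDC CKO replicate 1, Dec205 CKO replicate 2, Dec205 WT replicate 1 or either Esamlo WT library). Without pDC CKO replicate 2 it was -1.70 (edgeR adjusted p = 0.325), and without the 2 libraries highest in B cell markers -2.68 (edgeR adjusted p = 0.0929). Against Esamlo the Notch4 difference was -2.19 (95% interval -3.53 to -0.85, edgeR adjusted p = 0.101), and against Esamhi -1.93 (95% interval -3.26 to -0.61, edgeR adjusted p = 0.139). DESeq2 called both, at -2.20 (DESeq2 adjusted p = 0.0134) and -1.93 (0.0355), and Notch4 in the joint test (0.00116). Whether the fall of Notch4 passed as larger in Dec205 than in the cDC2 subsets thus depended on the tool and, with edgeR, on which library was left out.

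**Figure D4:**
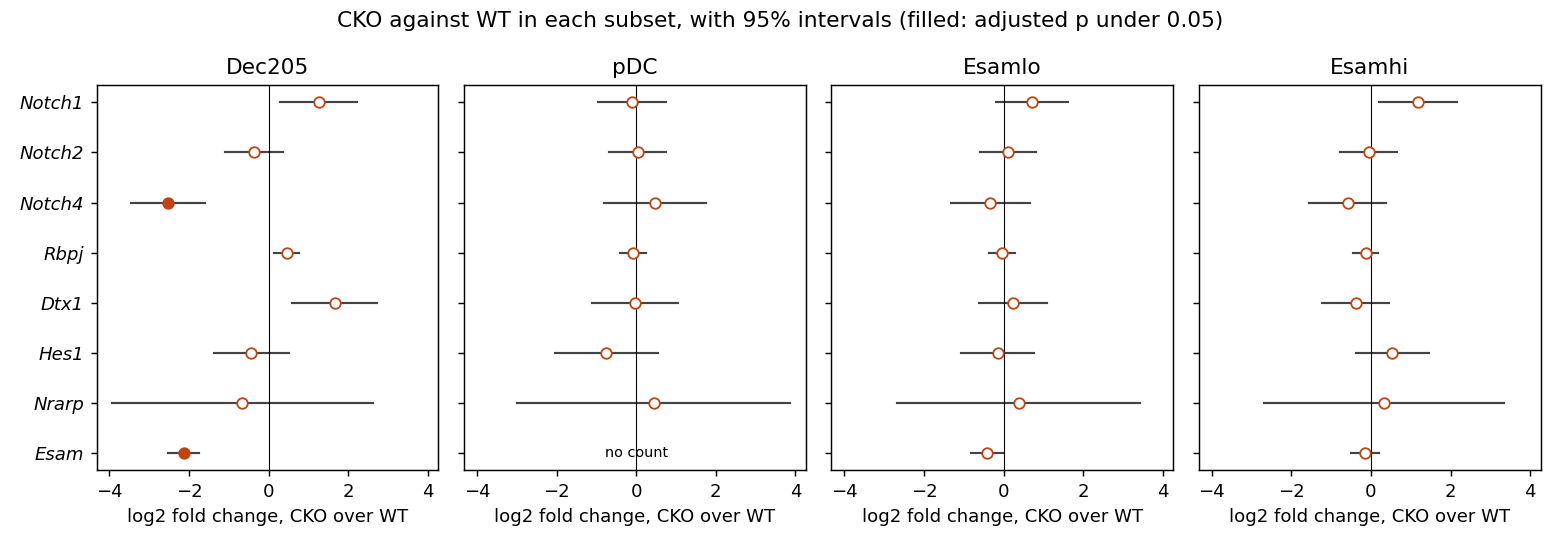
Effect of CKO against WT on the 8 genes, 1 panel per subset, as log2 fold changes with 95% intervals. Filled marks passed the edgeR test at an adjusted p under 0.05. In Dec205, Notch4 (-2.52) and Esam (-2.14) lay below 0 and passed, while no gene passed in pDC, Esamlo or Esamhi. Esam in pDC has no count and no mark.

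A further 63 genes of the pathway, from ligands to nuclear cofactors, were all in the table and 60 passed the filter. In Dec205, 1 was higher in CKO and 2 were lower, 3 of 60 against 6.78% of all tested genes. Tle1, a Groucho corepressor, was at 59.9 and 99.7 CPM in CKO against 39.2 and 16.6 CPM in WT (log2 fold change 1.52, SE 0.34, edgeR adjusted p = 0.0193). Tle3, its relative, had -0.51 (SE 0.13, edgeR adjusted p = 0.0334), and Dtx2, a relative of Dtx1, had -0.52 (SE 0.13, edgeR adjusted p = 0.0356). In pDC, Aph1b, a subunit of the gamma-secretase that cuts Notch, was higher (0.85, SE 0.19, edgeR adjusted p = 0.0376), 1 of 60 against 1.85%. In Esamlo and Esamhi none of the 60 was called by edgeR, with 4 and 5 at an unadjusted p under 0.05 and 0 and 1 called by DESeq2. DESeq2 called 5 of the 60 in Dec205 (against 12.6% of all genes it tested), 2 in pDC and 4 for the average over the subsets. Among all genes it called 549 in pDC, 250 in Esamlo, 305 in Esamhi and 1347 for the average. Averaged over the subsets, Lfng, a Fringe glycosyltransferase that modifies Notch receptors, was higher in CKO (0.52, SE 0.11, edgeR adjusted p = 0.0157), 1 of 60 against 5.82%. In Esamlo, where it was not called on its own, it was at 156 and 174 CPM in CKO against 122 and 113 CPM in WT. The median of the 60 was -0.02 in Dec205, beside 0.00 for all tested genes.

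Between subsets of WT the share of the wider pathway called lay near that of all tested genes. Jag1, a Jagged ligand, was at 50.3 ± 15.5 CPM in Esamhi and 15.9 ± 0.808 CPM in Esamlo (SD, n = 2 each; log2 fold change 1.66, SE 0.44, edgeR adjusted p = 0.0448). Tle3 was higher in Esamhi by 0.56 (SE 0.13, edgeR adjusted p = 0.0235). These were the 2 of 60 called between the cDC2 subsets, against 5.81% of all tested genes. Between Esamhi and Dec205, 14 were higher and 10 lower in Esamhi, 24 of 60 against 37.4%. The largest called differences were in Maml3 (4.41) and Maml1 (2.26), coactivators of the Mastermind family, and Ep300 (2.12), an acetyltransferase that they recruit, all higher in Esamhi. Jag2 (-3.83), the other Jagged ligand, and Neurl1b (-2.44), a ubiquitin ligase that acts on ligands, were lower. Hes5 (3.41) was higher, at a level of at most 1.35 CPM in these libraries. Jag2 was at 2.66 and 2.70 CPM in Esamhi WT and 48.8 and 27.8 CPM in Dec205 WT, while Jag1 was higher in Esamhi than in Dec205 by 1.61 on the log2 scale (SE 0.44, edgeR adjusted p = 0.0115).

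The genes whose levels over the 16 libraries were most like those of each member are given as a description, by Pearson's r of log2 CPM. The libraries share subset and genotype, so r mostly follows the differences between subsets. They were Epsti1 (0.98), Myl6 (0.96) and Rasa2 (0.96) for Notch4. They were Hpse (0.96), Serinc3 (0.95) and Prkca (0.95) for Notch1, and Nfatc2ip (0.99), Dock10 (0.98) and Plxnd1 (0.98) for Notch2. Gpr65 (0.98), Ccl2 (0.97) and Anxa1 (0.97) came closest to Rbpj. Dthd1, Ston2 and Clcn1 (each 0.98) came closest to Dtx1, and Abcg3 (0.99), Dna2 (0.98) and Ffar2 (0.98) to Hes1. Oxsm (0.91), Rev1 (0.91) and Pilrb2 (0.90) came closest to Nrarp, and Dnajc22, S100a11 and Rrad (each 0.99) to Esam. Ranking by Spearman's rho kept 4 of these 24 genes. Among the members themselves, r was 0.90 for Hes1 with Esam, 0.89 for Notch2 with Dtx1 and -0.94 for Notch1 with Esam.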

How the data were processed

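RNA was measured in 16 libraries of sorted splenic dendritic cells, 2 for each of 4 subsets in CKO and WT. The deposited values are the authors' raw counts per gene, whole numbers for 24116 genes. Per the submitters' processing notes the build was mm10 and the tools included Bowtie2 2.2.9, Trimmomatic 0.36 and bcl2fastq. How reads were assigned to genes, and whether by strand, is not given in the sources used here. Per the labels' protocols, the SMART-seq v4 kit made the cDNA, amplified by PCR without marking strand.

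Genes were filtered with filterByExpr (13790 kept) and scaled by TMM. They were tested with edgeR 4.0.16 (R 4.3.3), by the two-sided quasi-likelihood F test with 1 coefficient per group over all 16 libraries, which leaves 8 residual degrees of freedom. P-values were adjusted by Benjamini-Hochberg over all tested genes and called under 0.05. Standard errors come from the F statistic and 95% intervals from the t distribution. CPM uses TMM-scaled library sizes, log2 CPM a prior count of 2, and genes at 0 a floor of 3 counts, which covers counting error only. The script was tested on simulated data. Exon lengths and overlaps are of GENCODE M21, and positions and promoters of RefSeq (GRCm38.p6). Windows for Notch1, Notch2, Notch4, Rbpj, Dtx1 and Nrarp were matched.

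The 8 genes and the gene lists were chosen with earlier results of these data known. All 8 are named. Genes most like a member are the 3 with a proper name and the highest r. Of the other pathway genes, each one called in CKO is named, with the 6 largest called differences of Esamhi from Esamlo and from Dec205 in WT. The alternatives were DESeq2 1.42.0, total counts, other filters, fits of fewer libraries, a replicate block and leaving out each library.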

Additional observations from a re-analysis of the deposited data

Results flagged for a closer look

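The effect of CKO on Esam differed between subsets by a direct test. The log2 fold change in Dec205 minus that in Esamlo was -1.72 (SE 0.24, edgeR adjusted p = 0.00634), and minus that in Esamhi it was -1.99 (SE 0.23, edgeR adjusted p = 0.0016). The joint test over the subsets gave an edgeR adjusted p of 0.00472, with no Esam counts in pDC. Esamlo and Esamhi were sorted by ESAM and Dec205 is not described so. The part of these gates in the Esam differences cannot be told apart from that of CKO. For Notch4 the log2 fold change in Dec205 minus that in pDC was -3.00 (SE 0.68, edgeR adjusted p = 0.0387). Leaving out 1 library moved this Notch4 value between -3.66 and -1.70, and most such fits did not keep the call.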

How the results depend on the processing

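The calls of Notch4 and Esam in Dec205, and of Esam for Dec205 minus Esamlo and minus Esamhi, were kept under every alternative run. By DESeq2 the number of the 8 genes called was 5 in Dec205 (against 2, adding Notch1, Dtx1 and Rbpj), 2 for the average over subsets (against 1), 2 for Dec205 minus Esamlo, 2 for Dec205 minus Esamhi and 2 in the joint test (against 1 each), Notch4 being added in these 4. The average gave 0 without the filter on low counts and 0 with a replicate block, and 3 were called in Esamhi from its 4 libraries alone (against 0). The cause was not tested. Leaving out 1 library gave 2 to 4 in Dec205, 0 to 3 for the average, 0 to 2 for Dec205 minus pDC and 1 to 2 for Dec205 minus Esamlo, minus Esamhi and in the joint test. In WT it gave 2 to 3 for Esamhi against Esamlo, 4 to 5 for Esamhi against Dec205, 4 to 6 for Dec205 against Esamlo, 7 to 8 for Esamhi or Esamlo against pDC, and 5 for Dec205 against pDC.

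The correlation of same-numbered deviations was weak, from -0.07 to 0.12 over 28 pairs of groups. Within a genotype it ran from 0.007 to 0.12 over 12 pairs. It was highest for Esamlo with Esamhi, at 0.12 in WT and 0.11 in CKO. The labels do not say whether same-numbered libraries share a mouse, so these values cannot settle whether the subsets are paired. The replicate block changed 2 of 109 calls, both of Notch1: the average (edgeR adjusted p = 0.0522) and Esamhi against Esamlo (0.0576). Of all fold changes compared, 43 of 1744 changed sign when a library was left out and 7 of 951 otherwise, none of them called under either setting. The order of subsets was kept with a prior count of 0.5. Scaling by total counts moved the median of all genes by -0.24 for Dec205 against pDC, -0.14 for Dec205 against Esamlo, -0.13 for Esamhi against pDC and 0.10 for Esamhi against Dec205.

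Among all tested genes, the number called moved most with the tool and the libraries fitted. In Dec205 it was 935, with 1707 by DESeq2, 136 from its 4 libraries and 606 without the 2 libraries high in B cell markers. In pDC it was 255, with 549 by DESeq2 and 91 from its 4 libraries. In Esamlo it was 76, with 250, 126 and 29 under the same 3 changes, and in Esamhi 121, with 305 by DESeq2 and 578 from its 4 libraries. By DESeq2 it was 1347 for the average (against 802), 869 for Dec205 minus pDC (against 333), 593 for Dec205 minus Esamlo (against 211, and 106 without the 2 libraries), 643 for Dec205 minus Esamhi (against 263), 1082 for the joint test (against 337) and 1400 for Esamhi against Esamlo (against 801). Nrarp, at most 4.41 CPM, and Notch4 outside Dec205, at most 8.51 CPM, have wide intervals at this depth.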

Other observations

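The pDC libraries carried a further receptor and the Delta ligands, which were picked out after their values were seen. Notch3, a receptor related to Notch1, was at 50.8 and 53.1 CPM in pDC CKO and 47.0 and 41.3 CPM in pDC WT, and at most 1.42 CPM in any other library. Dll4, a Delta-like ligand, was at 160 and 156 CPM in pDC CKO and 215 and 171 CPM in pDC WT, and at most 4.63 CPM elsewhere. Dll1, its relative, was at 26.5 and 10.1 CPM in pDC CKO and 21.6 and 10.3 CPM in pDC WT, and at most 1.62 CPM elsewhere. None of the 3 passed the edgeR test of CKO against WT in pDC. The cadherin Cdh5, listed as an endothelial marker, was likewise at 72.3 and 70.1 CPM in pDC CKO and 113 and 113 CPM in pDC WT, with Tie1, Tek, Emcn and Sox17 at 0 in all 4 pDC libraries.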
